A study of Mus musculus with 2 samples.

Results

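The let-7a, let-7c and let-7f guide strands are each made by 2 genes of the mouse genome: Mirlet7a-1 with Mirlet7a-2, Mirlet7c-1 with Mirlet7c-2, and Mirlet7f-1 with Mirlet7f-2. They were taken by name, through the GENCODE M21 symbols of the gene identifiers, and all 6 were found among the 2202 microRNA genes counted. MicroRNA-seq was made from tissue labelled as a layer of hippocampus, taken from B6CASTF1/J males at 36 days of age, which are F1 hybrids between CAST/EiJ and C57BL/6J. The data are 1 group of 2 libraries, biological replicates 2 and 1, with no treatment, mutation or second condition. Each replicate has its own tissue record but both carry the same donor record. Whether the tissue came from separate animals is not given in the sources used here. P-values between the replicates compare the reads of these 2 libraries and do not measure a spread between animals.

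let-7 was found in the worm Caenorhabditis elegans as a regulator of developmental timing, and in mammals its family is abundant in differentiated tissue, the adult brain included. A primary transcript is cut to a hairpin and then to a duplex, whose 5p strand is the usual guide and whose 3p strand is usually degraded. Bases 2 to 8 of the guide form the seed, which pairs with target messengers such as those of Hmga2, a chromatin protein of growing cells, and Lin28a, an RNA-binding protein. Lin28 proteins in turn bind let-7 precursors near the loop, at a GGAG element, and block their maturation.

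The 3 guide strands are shown because each is written identically at 2 places in the genome. The capitals mark the seed, and the sequences are from RefSeq on GRCm38.p6, 5′ to 3′.
let-7a-5p: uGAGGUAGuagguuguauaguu
let-7c-5p: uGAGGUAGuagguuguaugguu
let-7f-5p: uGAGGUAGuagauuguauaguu
All 3 share the seed GAGGUAG. Counted from the 5′ end, let-7c-5p differs from let-7a-5p by A19G alone and let-7f-5p differs from let-7a-5p by G12A alone.

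The 6 hairpins are shown because they differ mainly outside the guide strand, which is in capitals, and the RefSeq hairpin matched the GENCODE M21 transcript for all 6.
Mirlet7a-1: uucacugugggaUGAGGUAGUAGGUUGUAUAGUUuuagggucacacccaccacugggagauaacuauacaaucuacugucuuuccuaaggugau
Mirlet7a-2: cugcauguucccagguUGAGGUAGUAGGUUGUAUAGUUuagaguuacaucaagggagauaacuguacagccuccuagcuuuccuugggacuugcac
Mirlet7c-1: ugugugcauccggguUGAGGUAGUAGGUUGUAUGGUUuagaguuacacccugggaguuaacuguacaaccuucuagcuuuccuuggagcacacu
Mirlet7c-2: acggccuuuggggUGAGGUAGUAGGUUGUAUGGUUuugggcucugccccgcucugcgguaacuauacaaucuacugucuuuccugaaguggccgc
Mirlet7f-1: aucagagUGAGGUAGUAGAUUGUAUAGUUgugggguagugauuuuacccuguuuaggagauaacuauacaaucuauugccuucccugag
Mirlet7f-2: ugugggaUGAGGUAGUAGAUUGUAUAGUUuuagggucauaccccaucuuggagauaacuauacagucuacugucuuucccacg

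The 3p strands, unlike the guides, separate most of the loci, and their seeds are in capitals.
let-7a-1-3p: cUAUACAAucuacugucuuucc
let-7c-2-3p: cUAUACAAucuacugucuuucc
let-7f-1-3p: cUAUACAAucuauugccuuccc
let-7f-2-3p: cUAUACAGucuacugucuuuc
let-7a-2-3p: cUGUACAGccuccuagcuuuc
let-7c-1-3p: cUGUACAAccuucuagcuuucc
The first 3 share the seed UAUACAA, and the other 3 each have a seed of their own. let-7a-1-3p and let-7c-2-3p are the same sequence, so these loci share their 3p strand with each other and their 5p strand with another gene. Over the bases compared, let-7a-2-3p differs from let-7a-1-3p at 6 of 21 positions, let-7c-1-3p from let-7c-2-3p at 5 of 22, and let-7f-1-3p from let-7f-2-3p at 4 of 21.

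The letters set how long a read must be before it matches 1 place among the annotated microRNA hairpins. Genes that overlap a hairpin were left out of this search, which concerns Gm24111, an annotated microRNA gene on the opposite strand of Mirlet7f-1 that holds the reverse complement of its 5p and 3p strands. A read that starts at the first base of the guide is held by no microRNA hairpin at another place, on either strand, once it reaches 24 bases for Mirlet7a-1, Mirlet7a-2, Mirlet7c-1 and Mirlet7c-2, and 23 bases for Mirlet7f-1 and Mirlet7f-2. The guide itself is 22 bases long. The first base after the guide is U at Mirlet7f-2 and G at Mirlet7f-1, while at the a and c loci it is U at both loci and the second base differs. From the start of the 3p strand the length needed was 24 bases for Mirlet7a-1 and Mirlet7c-2 and between 10 and 13 bases for the other 4 loci, where 10 was the shortest length searched. The longest stretch shared with another of the 6 loci was 26 bases between Mirlet7a-1 and Mirlet7c-2, 23 bases within the a pair and within the c pair, and 22 bases within the f pair.

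Outside these stretches the hairpins were distinct. Of the windows of 22 bases, no annotated microRNA hairpin at another place holds 66 of 73 in Mirlet7a-1, 67 of 74 in Mirlet7c-2, 73 of 75 in Mirlet7a-2, 71 of 73 in Mirlet7c-1, 67 of 68 in Mirlet7f-1 and 61 of 62 in Mirlet7f-2. The windows that are shared begin at the first or second base of the guide and, for Mirlet7a-1 and Mirlet7c-2, around the 3p strand. The plot of shared windows draws these positions. Reads that match several places stand on a line of their own in the deposited tables and enter no gene's count, so the counts below are of reads placed at a single locus. What share of let-7a, let-7c or let-7f those reads hold was not tested, and other places in the genome were not searched.

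**Figure D1:**
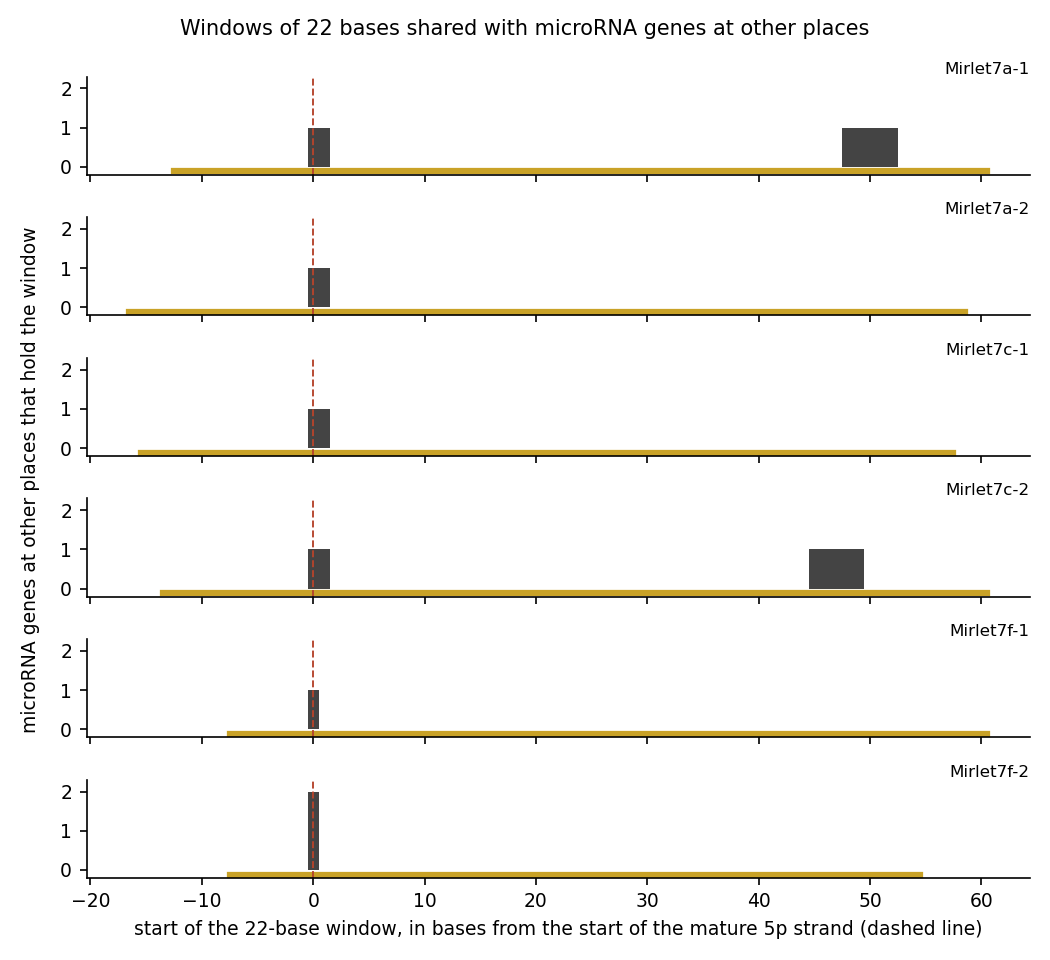
Each panel is 1 locus; the x axis is the start of a 22-base window in bases from the guide's first base (dashed line), the bar height is the number of annotated microRNA genes that hold the window, leaving out genes that overlap the hairpin, and the gold line spans all windows of the hairpin. Shared windows sit at the guide's start in all 6 loci and again from base 48 to 52 in Mirlet7a-1 and from base 45 to 49 in Mirlet7c-2; the bar of 2 in Mirlet7f-2 counts Mirlet7f-1 and Gm24111, which lies on the opposite strand of Mirlet7f-1.

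GGAG occurs on the RNA strand of 5 of the 6 hairpins and not in Mirlet7c-2. In Mirlet7a-1, Mirlet7a-2, Mirlet7c-1, Mirlet7f-1 and Mirlet7f-2 it ends 4 bases before the 3p strand, and Mirlet7c-1 holds it a second time at positions 85 to 88 of the hairpin. Its reverse complement CTCC occurs in Mirlet7a-2 alone. Of the 445 annotated microRNA hairpins of 83 to 96 bases, the lengths of these 6, 146 hold GGAG (32.8%) and 119 hold CTCC (26.7%).

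Own-strand gene counts came to 5279877 in replicate 2 and 4404040 in replicate 1. Reads that match several places made up 46.5% of all reads in replicate 2 and 40.3% in replicate 1, which is 7087928 and 5017585 reads. Levels are in CPM, counts per 1000000 own-strand gene counts, and where a gene has no count the limit is 3 counts, which is 0.568 CPM in replicate 2 and 0.681 CPM in replicate 1. All intervals given are for counting error alone and take reads as independent. Reads amplified by PCR and not marked by molecular identifiers are not independent, so the intervals can be too narrow. Neuronal microRNAs were present (7 of 10 listed genes with 10 or more counts in both libraries, summed CPM 48934 in replicate 2 and 42186 in replicate 1), as were those of oligodendrocytes (3 of 3 genes, 5662 and 5819) and vessel wall (3 of 3 genes, 43835 and 16250). In the vessel list Mir126a had 37937 CPM in replicate 2 and 9729 in replicate 1, Mir143 had 5658 and 6311, and Mir145a had 241 and 209. The choroid plexus and ciliated epithelium list (4 of 5 genes) summed to 1681 and 1304 CPM, the leukocyte and microglia list (3 of 3 genes) to 124 and 93.8 CPM, the red blood cell list (3 of 3 genes) to 113 and 66.8 CPM, and the list of tissues other than brain (3 of 4 genes) to 407 and 367 CPM. The neuronal microRNA miR-124 is itself made by 3 loci, of which Mir124a-1 had 8 counts in replicate 2 and 11 in replicate 1, Mir124a-2 had 1 in each and Mir124a-3 had 0 in both.

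Mirlet7f-2 (ENSMUSG00000065602.1) was the highest of the 6. It lies in an intron of Huwe1, which encodes a ubiquitin ligase, on chromosome X from 151912346 to 151912428, plus strand (mm10), and in males that chromosome is present once. It had 18937 counts in replicate 2 and 19417 in replicate 1, or 3587 and 4409 CPM. Its mean of 3998 ± 581 CPM (SD, n = 2) placed it 48th of the 2202 genes. It alone took 59.4% of the counts of the 6 loci in replicate 2, with a 95% Wilson interval of 58.9 to 60.0%, and 58.1% in replicate 1, with one of 57.6 to 58.7%.

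Mirlet7c-2 (ENSMUSG00000065608.1) followed. It lies in an exon of the long noncoding RNA Lncppara on chromosome 15 from 85706603 to 85706697, plus strand. It had 7944 counts in replicate 2 and 7884 in replicate 1, or 1505 and 1790 CPM, with a mean of 1647 ± 202 CPM (SD, n = 2), the 78th place. Its paralogue Mirlet7c-1 (ENSMUSG00000065557.3) lies in an intron of the noncoding host transcript Mir99ahg on chromosome 16 from 77599657 to 77599750, plus strand, with an intron of Gm11146 on the opposite strand. Mirlet7c-1 had 2214 and 2409 counts, 419 and 547 CPM, with a mean of 483 ± 90.3 CPM (SD, n = 2) and the 129th place.

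The other 3 loci stood lower. Mirlet7a-1 (ENSMUSG00000065421.3) and Mirlet7f-1 (ENSMUSG00000105621.1) lie 262 bases apart in an exon of the noncoding RNA 6720427I07Rik on the minus strand of chromosome 13, from 48538179 to 48538272 and from 48537829 to 48537917. Mirlet7a-1 had 1260 counts in replicate 2 and 1582 in replicate 1, 239 and 359 CPM, with a mean of 299 ± 85.3 CPM (SD, n = 2). Mirlet7f-1 had 1045 and 1436 counts, 198 and 326 CPM, with a mean of 262 ± 90.6 CPM. Mirlet7a-2 (ENSMUSG00000092770.1) was the lowest, in introns of the noncoding genes 3110039I08Rik and Gm49317 on chromosome 9 from 41536716 to 41536811, plus strand. It had 456 counts in replicate 2 and 670 in replicate 1, 86.4 and 152 CPM, with a mean of 119 ± 46.5 CPM and the 188th place.

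The order Mirlet7f-2, Mirlet7c-2, Mirlet7c-1, Mirlet7a-1, Mirlet7f-1, Mirlet7a-2 was the same in both libraries and the same per base of hairpin. Only the neighbours Mirlet7a-1 and Mirlet7f-1 overlapped across the libraries, at 239 to 359 CPM against 198 to 326 CPM. All 6 loci had more CPM than the median of the genes with 10 or more counts in both libraries, which was 96.0 CPM in replicate 2 and 68.1 CPM in replicate 1, except Mirlet7a-2 in replicate 2. An exact two-sided sign-flip test on 2 libraries cannot give a p below 0.5, and levels were therefore not tested between loci.

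**Figure D2:**
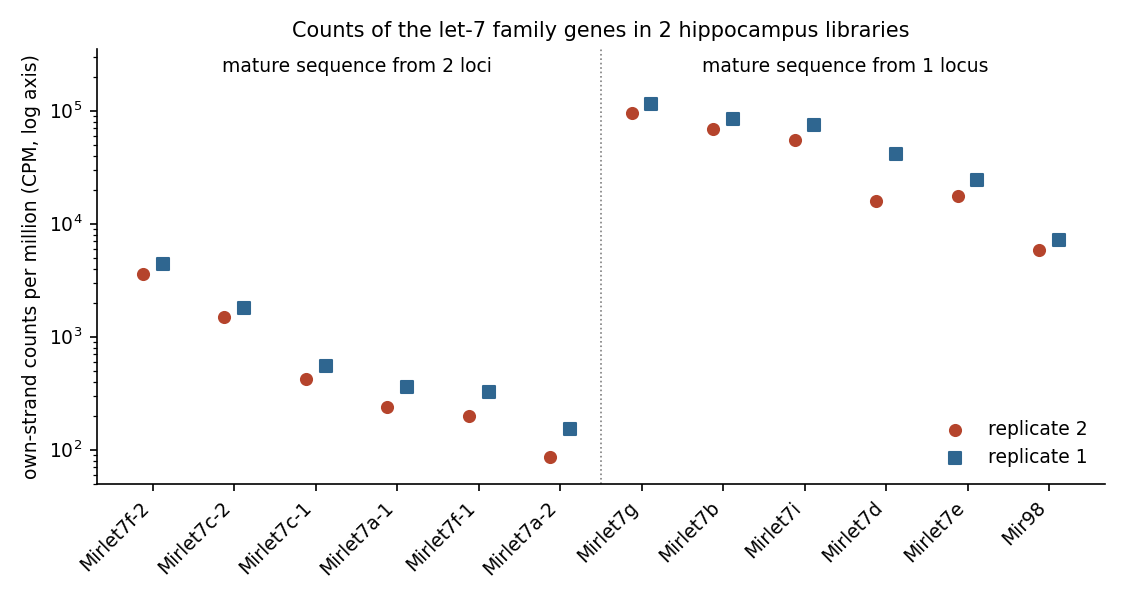
Own-strand counts in CPM (log axis) of the 6 duplicated let-7 loci (left of the dotted line) and the 6 let-7 family genes with a guide made by 1 locus (right), in replicate 2 (circles) and replicate 1 (squares). Each of the 6 duplicated loci lies below each of the other 6 genes in its library, with Mirlet7f-2 at 3587 and 4409 CPM nearest to Mir98 at 5834 and 7112 CPM.

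The family genes with a guide of their own (Mirlet7b, Mirlet7d, Mirlet7e, Mirlet7g, Mirlet7i and Mir98) give the scale. Summed over the 6 duplicated loci there were 31856 counts in replicate 2 and 33398 in replicate 1, and summed over those 6 genes 1363336 and 1523384. The duplicated loci thus held 2.28% (95% Wilson interval 2.26 to 2.31) of the family's counts in replicate 2, and 2.15% (2.12 to 2.17) in replicate 1. Of all gene counts they held 0.603% (0.597 to 0.610) in replicate 2 and 0.758% (0.750 to 0.766) in replicate 1. For those 6 genes no 22-base window of the hairpin is held by an annotated microRNA hairpin at another place, leaving out genes that overlap it. The reads that match several places were 222 times the sum of the 6 duplicated loci in replicate 2 and 150 times in replicate 1, and how many of them carry a let-7 guide was not tested.

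Within each pair 1 locus held most of the counts that could be placed, in both libraries. Mirlet7f-2 had 18.1 times the counts of Mirlet7f-1 in replicate 2 (95% exact binomial interval 17.0 to 19.3) and 13.5 times in replicate 1 (12.8 to 14.3). Mirlet7c-2 had 3.59 times the counts of Mirlet7c-1 in replicate 2 (3.42 to 3.76) and 3.27 times in replicate 1 (3.13 to 3.43). Mirlet7a-1 had 2.76 times the counts of Mirlet7a-2 in replicate 2 (2.48 to 3.08) and 2.36 times in replicate 1 (2.16 to 2.59). In these placed counts the locus on chromosome X was the high one of the f pair. The 2 pairs with a member in the chromosome 13 cluster went opposite ways, with the chromosome 13 locus higher for a and lower for f. Reads of the guide alone match both loci of a pair and are outside these ratios. From the guide's start a read needs 23 bases at the f loci and 24 at the a and c loci. From the start of the 3p strand a read needs 24 bases at Mirlet7a-1 and Mirlet7c-2. At their partners Mirlet7a-2 and Mirlet7c-1 it needs 10, the shortest length searched, so 3p reads are not placed alike within the a and c pairs. In each pair the locus with more placed counts is the one whose guide is followed by UU (Mirlet7a-1, Mirlet7c-2 and Mirlet7f-2). The guide is followed by UA at Mirlet7a-2 and Mirlet7c-1 and by GU at Mirlet7f-1. Whether these bases bear on the locus at which a read is placed was not tested. The full output of each locus was not tested.

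The ratios moved little with the length of the hairpin: per base, Mirlet7f-2 over Mirlet7f-1 was 19.4 in replicate 2 and 14.5 in replicate 1. The imbalance was larger in replicate 2 for all 3 pairs, by two-sided Fisher's exact tests of locus by library, adjusted over the 3 pairs by Benjamini-Hochberg. The adjusted p was 7.0e-12 for the f pair, 0.0092 for the c pair and 0.030 for the a pair. These tests compare the reads of 2 libraries, not a condition, and cover counting error only: reads are taken as independent and no spread between libraries is allowed for. On the log2 scale, replicate 2 over replicate 1, the ratio of Mirlet7a-1 over Mirlet7a-2 differed by 0.23, that of Mirlet7c-1 over Mirlet7c-2 by -0.13 and that of Mirlet7f-1 over Mirlet7f-2 by -0.42.

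Uneven counts were also seen at other mature sequences made by 2 annotated microRNA genes. Of 36 such sets, both genes with Mir symbols, that hold none of the 6 loci, 19 had 10 or more counts at both loci in both libraries, and the median ratio of the higher to the lower locus was 4.00 in replicate 2 and 4.27 in replicate 1. The range ran from 1.19 to 292 in replicate 2 and from 1.06 to 360 in replicate 1. The f pair was exceeded by 3 of the 19 sets in replicate 2 and 4 in replicate 1, the c pair by 11 and 10, and the a pair by 11 and 11. These sets were described and not tested. The minimum of 10 counts at both loci leaves out sets whose lower locus had few or no counts, so the most uneven sets can be missing. A set left out this way had a ratio of 82.5 in replicate 2, and others had no ratio because a locus had no count.

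**Figure D3:**
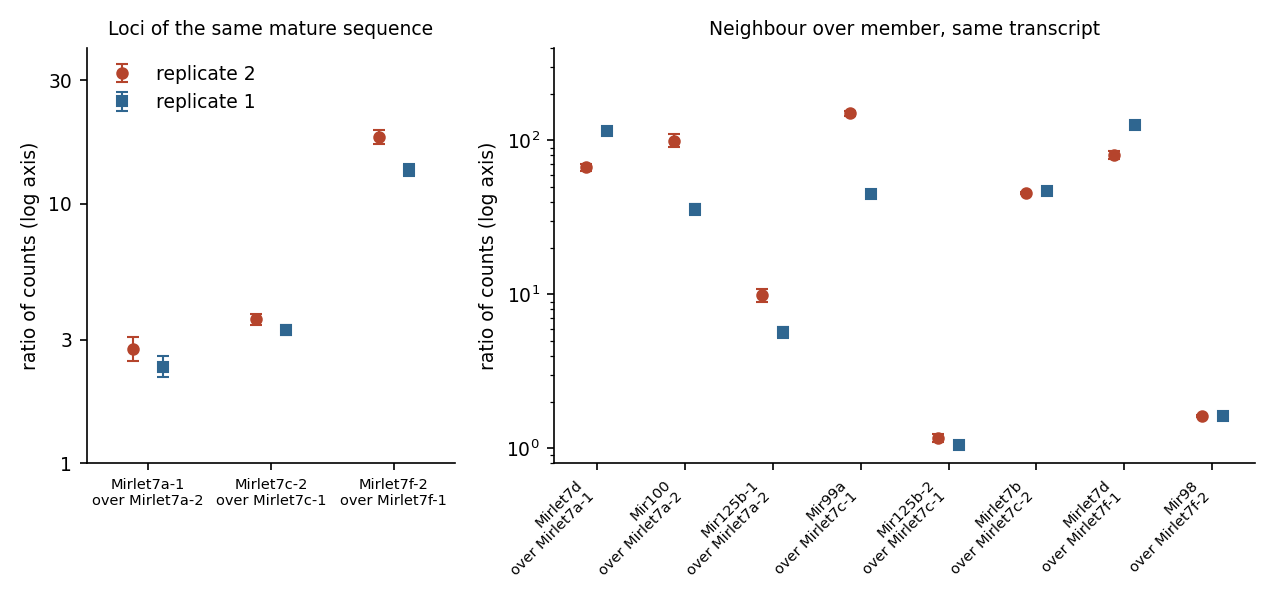
Left, the higher over the lower locus of each guide; right, neighbours of the same primary transcript over each locus; ratios of own-strand counts on log axes in replicate 2 (circles) and replicate 1 (squares), with bars for the 95% exact binomial interval. Mir98 over Mirlet7f-2 (1.63 and 1.61) stays level between the libraries, while Mir99a over Mirlet7c-1 (150 and 44.9) does not.

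The loci sit in clusters, and most neighbours in the same primary transcript had more placed counts than they did. Reads of the whole guide of a duplicated locus match 2 places and are outside its count. For Mirlet7d, Mirlet7b and Mir98 no 22-base window is held by a microRNA hairpin at another place. How much each hairpin yields from a shared transcript was not tested. Mirlet7d, which shares the transcript of Mirlet7a-1 and Mirlet7f-1, had 66.9 times the counts of Mirlet7a-1 in replicate 2 (95% exact binomial interval 63.3 to 70.8) and 115 times in replicate 1 (109 to 121). It had 80.7 and 126 times the counts of Mirlet7f-1. Between the 2 duplicated loci themselves, Mirlet7f-1 had 0.829 times the counts of Mirlet7a-1 in replicate 2 (0.763 to 0.901) and 0.908 times in replicate 1 (0.845 to 0.976), and these intervals overlap. Mirlet7b, 622 bases from Mirlet7c-2, had 45.6 times its counts in replicate 2 (44.6 to 46.6) and 47.3 times in replicate 1 (46.2 to 48.3).

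On chromosome X the difference in placed counts was small and steady. Mir98, 786 bases from Mirlet7f-2 also within an intron of Huwe1, had 30805 counts in replicate 2 and 31323 in replicate 1, or 1.63 times (1.60 to 1.66) and 1.61 times (1.58 to 1.64) those of Mirlet7f-2. Of the cluster ratios described, this one differed least between the libraries.

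The other clusters pair let-7 with a miR-99 or miR-100 gene and with miR-125b, the homologue of the worm timing microRNA lin-4. Mir99a, 657 bases from Mirlet7c-1, had 150 times its counts in replicate 2 (144 to 156) and 44.9 times in replicate 1 (43.1 to 46.8). Mir100 had 99.6 times the counts of Mirlet7a-2 in replicate 2 (90.8 to 109) and 35.7 times in replicate 1 (33.0 to 38.6). Mir125b-1 had 9.88 and 5.67 times the counts of Mirlet7a-2, and Mir125b-2 had 1.17 and 1.05 times those of Mirlet7c-1. The guide miR-125b is itself made by both of these loci, so reads of the whole guide match both. The rest of the paralogous set, in the transcript of Mirlet7e, had 19707 and 2844 CPM (Mir99b) and 10861 and 7940 CPM (Mir125a).

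All 6 loci were lower in replicate 2 than in replicate 1. In the exact conditional binomial test with TMM-adjusted library sizes, 504 genes reached a total of 10 counts and were tested, of which 55.8% differed at a Benjamini-Hochberg adjusted p under 0.05, and 23.2% were lower in replicate 2, the 6 loci among them. Their log2 ratios of replicate 2 over replicate 1, with 1 CPM added, ran from -0.83 to -0.27 with a median of -0.50, against a median of 0.05 over all tested genes, of which 47.0% lay below 0. The test covers counting error: edgeR's estimate of the coefficient of variation between the libraries was 0.426, and in a beta-binomial test that allows 0.3 none of the 6 was past the threshold (0.198% of tested genes were lower). Allowing 0.1, Mirlet7a-1, Mirlet7a-2 and Mirlet7f-1 were, beside 10.5% of tested genes.

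Within each pair the locus with fewer counts had the larger difference, which restates the larger imbalance of each pair in replicate 2. Mirlet7a-2 had a log2 ratio of -0.83 (adjusted p = 2.5e-21) and Mirlet7a-1 of -0.61 (adjusted p = 2.1e-28, both by the exact binomial test). Mirlet7f-1 stood at -0.73 and Mirlet7f-2 at -0.31. Mirlet7c-1 stood at -0.40 and Mirlet7c-2 at -0.27. The 6 family genes with a guide of their own were lower too, from -1.38 (Mirlet7d) to -0.28 (Mirlet7g), with a median of -0.38. Of the 6 Mir99, Mir100 and Mir125 genes of let-7 transcripts, 4 were higher (32.5% of all tested genes were) and 1, Mir125b-2 at -0.24, was lower, while Mir125b-1 at -0.03 did not pass (adjusted p = 0.39 by the exact binomial test). The share of reads that match several places was higher in replicate 2, at 46.5% against 40.3%, and the share of unmapped reads was lower, at 13.7% against 20.2%. Summed CPM of the vessel wall list was 43835 in replicate 2 against 16250 in replicate 1. Its genes did not move alike: Mir126a had 37937 against 9729 CPM, Mir143 had 5658 against 6311 and Mir145a had 241 against 209. The part of these in the differences was not tested.

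**Figure D4:**
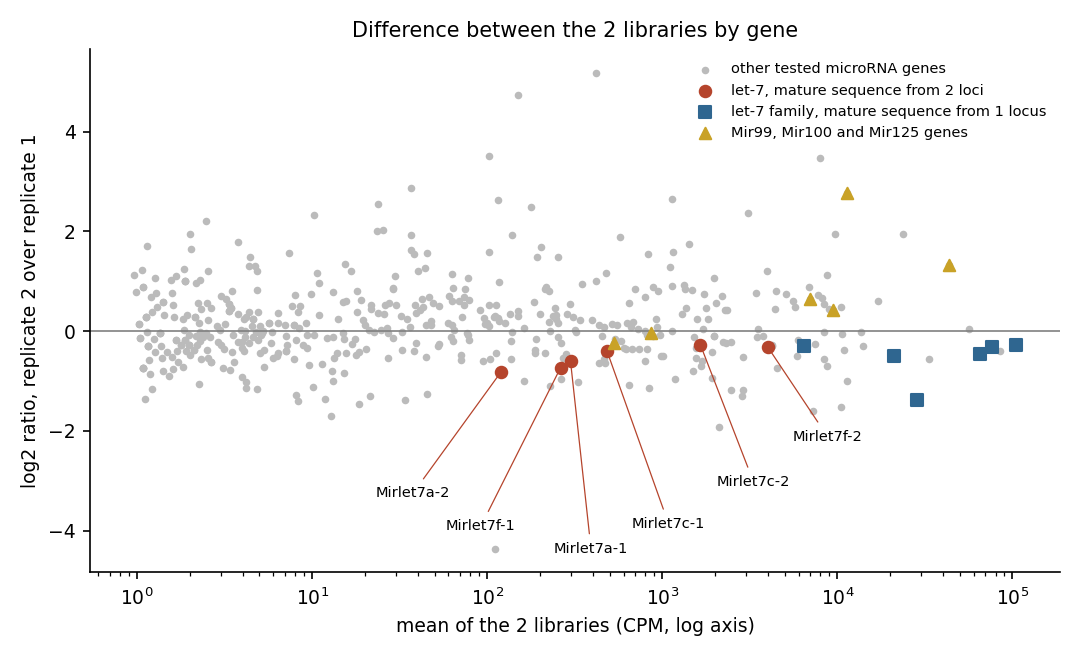
Log2 ratio of replicate 2 over replicate 1 against the mean CPM of both libraries (log axis) for the 504 tested genes; circles are the 6 duplicated let-7 loci, squares the other let-7 family genes, triangles the Mir99, Mir100 and Mir125 genes. The circles lie between -0.83 and -0.27, below the median of all tested genes at 0.05.

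Genes outside the let-7 family with the most similar counts in the 2 libraries, by Euclidean distance in log2(CPM + 1), were found for each locus. Mirlet7f-2 was nearest to Mir361 (distance 0.11; 3807 CPM in replicate 2 and 4635 in replicate 1) and Mir378a (0.12). Mirlet7c-2 was nearest to Mir671 (0.13) and Mir434 (0.20), and Mirlet7c-1 to Mir672 (0.08) and Mir34c (0.14). Mirlet7a-1 was nearest to Mir1981 (0.15) and Mir877 (0.20), Mirlet7f-1 to Mir877 (0.16) and Mir376c (0.17), and Mirlet7a-2 to Mir500 (0.29) and Mir26a-2 (0.30). With 2 libraries these are neighbours in level only.

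The strand columns bear on 1 locus. Mirlet7f-1 is overlapped on the opposite strand by the annotated microRNA gene Gm24111, which had 0 counts in both libraries. Its count was 0 in both libraries in the either-strand column, where the line for ambiguous reads held 502531 in replicate 2 and 295823 in replicate 1, while the column for its own strand held 1045 and 1436. No read was counted on the opposite strand of any of the 6 loci.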

How the data were processed

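The deposited values are raw counts per microRNA gene, which the authors made on mm10 with GENCODE M21, according to the deposited notes. The aligner is not given in the sources used here. No header names the 3 strand columns, and their meaning was read from the values. The 4 lines that name no gene held 65.4% of reads in replicate 2 and 64.7% in replicate 1 and were left out. The label gives a size range below 30 bases.

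Own-strand counts were used and CPM was taken over all gene counts. Genes named are the 6 loci, same-strand microRNA genes within 10 kb or in the same primary transcripts, the let-7 family, the Mir99, Mir100 and Mir125 genes, the gene sharing the longest stretch and the 2 nearest in level; Gm24111, the Mir124a and vessel wall genes and host genes were named outside this rule. The members and lists were chosen with earlier results of these data known. edgeR 4.0.16 (R 4.3.3) gave TMM factors and the dispersion, DESeq2 1.42.0 the alternative size factors, and scipy 1.17.1 the exact tests. With 1 group there is no contrast for a quasi-likelihood fit in edgeR. The script of the exact binomial test was checked on simulated counts without a spread between libraries, so that check does not cover such a spread. Mature arms cannot be separated, and variants of CAST/EiJ were not examined.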

Additional observations from a re-analysis of the deposited data

Results flagged for a closer look

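Reads that match several places lie outside every gene's count, and they were numerous in both libraries: 7087928 in replicate 2 and 5017585 in replicate 1. Which RNAs they came from was not tested.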

How the results depend on the processing

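No paired analysis was possible because the series has 1 group. Allowing for a spread between libraries (coefficient of variation) of 0.1, 149 genes differed, and for one of 0.3 14 did, against 281 with counting error alone. At 0.3 none of the 6 loci passed, with log2 ratios as before: -0.61 for Mirlet7a-1 (adjusted p = 0.97), -0.83 for Mirlet7a-2 (0.81), -0.40 for Mirlet7c-1 (0.99), -0.27 for Mirlet7c-2 (1), -0.73 for Mirlet7f-1 (0.89) and -0.31 for Mirlet7f-2 (1.00), all by the exact beta-binomial test. At 0.1 Mirlet7c-1 (adjusted p = 0.14), Mirlet7c-2 (0.36) and Mirlet7f-2 (0.26) did not pass in the same exact test, and the other 3 did. With either-strand counts the ratio of Mirlet7f-1 over Mirlet7f-2 was 0, as was the level of Mirlet7f-1, and that locus was not tested there; the cause was not tested, and the other 5 loci stayed past the threshold at -0.77 to -0.21. Under total-count scaling, DESeq2 size factors, count minimums of 1 and 100 and pseudocounts of 0.5 and 5 CPM, all 6 loci were lower in replicate 2 and past the threshold, with log2 ratios between -0.96 and -0.25. Leaving out 1 library gives the other library's value. Windows of 18 bases left 72.7% of Mirlet7a-1 and 78.2% of Mirlet7c-2 in no microRNA hairpin at another place, against 90.4% and 90.5% for 22 bases. Depth limits the a pair most, since Mirlet7a-2 had 456 and 670 counts.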
